A study of Homo sapiens with 5 samples.

Results

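The regions described here are promoters of protein-coding genes at which an Rb peak was present after CDK4/6 inhibition only, and at which the DNA under the peak summit was poor in CpG. They numbered 926 of 7322 gained coding promoter regions, out of 15036 regions obtained by merging the peaks of all Rb libraries. Rb occupancy had been profiled by CUT&RUN, an assay that sequences the DNA fragments cut free around an antibody-bound chromatin protein. Parental ZR-75-1 cells (labelled Parent), a hormone receptor-positive line derived from breast cancer, were exposed for 4 days to DMSO or to abemaciclib, a CDK4/6 inhibitor, at 500 nM. Each treatment had 2 Rb libraries, and 1 library made with an IgG2a antibody from DMSO-treated cells served as a negative control. The study describes the replicates as separate cultures, each profiled in its own reaction, and all results apply to 1 cell line.

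The 926 regions were chosen by measured values. A region was called gained when both abemaciclib libraries and neither of the DMSO libraries had a peak there, and counted as a coding promoter when it overlapped the stretch from 2000 bp upstream to 500 bp downstream of a transcription start site (TSS) of a protein-coding gene (GENCODE 44, GRCh38). It was called CpG-poor when the 200 bp centred on the strongest summit of abemaciclib replicate 1 had a GC content below 50% or an observed/expected CpG ratio below 0.6. That ratio divides the number of CpG dinucleotides by the number that the C and G content alone would give. Gain was the usual outcome, since 57.4% of all merged regions and 63.1% of the 11612 coding promoter regions were gained, and the presence of Rb in abemaciclib lists alone is therefore not a property of the CpG-poor set. The other 6396 gained coding promoter regions serve as the comparison below and are called CpG-rich.

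Rb, the product of the retinoblastoma gene, restrains cell cycle entry by binding E2F transcription factors at promoters. CDK4 and CDK6 phosphorylate Rb and weaken that binding, and their inhibitors keep Rb in its hypophosphorylated, chromatin-bound form. Most promoters of widely expressed human genes lie in CpG islands, stretches of high GC content in which CpG has escaped the depletion seen in the rest of the genome, whereas many tissue-restricted genes start in CpG-poor DNA.

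The windows of 5 CpG-poor regions are shown because they are the strongest, by mean rank of the 2 abemaciclib peak lists, of those in which no 200-bp stretch of the whole region was island-like and whose window held no UTR. The last window, at RAB40B, comes from a CpG-rich gained promoter and is shown for contrast. Each sequence is 200 bases of GRCh38, read 5′ to 3′ on the strand of the named gene, with every CpG in capitals.
NAT16, chr7:101182516-101182715, minus strand: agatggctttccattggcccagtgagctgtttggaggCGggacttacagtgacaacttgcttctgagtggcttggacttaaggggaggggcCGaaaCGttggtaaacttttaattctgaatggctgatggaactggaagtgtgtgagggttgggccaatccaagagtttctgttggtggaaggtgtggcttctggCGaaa
BMF, chr15:40106724-40106923, minus strand: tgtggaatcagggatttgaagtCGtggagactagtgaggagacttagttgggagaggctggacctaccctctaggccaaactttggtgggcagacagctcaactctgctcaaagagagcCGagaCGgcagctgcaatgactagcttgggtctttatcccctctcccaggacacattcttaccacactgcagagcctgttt
GOLPH3L, chr1:150697170-150697369, minus strand: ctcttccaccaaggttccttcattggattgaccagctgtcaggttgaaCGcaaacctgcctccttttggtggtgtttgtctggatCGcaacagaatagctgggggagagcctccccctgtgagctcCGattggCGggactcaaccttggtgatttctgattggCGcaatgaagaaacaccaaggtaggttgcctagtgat
PFKFB4, chr3:48558094-48558293, minus strand: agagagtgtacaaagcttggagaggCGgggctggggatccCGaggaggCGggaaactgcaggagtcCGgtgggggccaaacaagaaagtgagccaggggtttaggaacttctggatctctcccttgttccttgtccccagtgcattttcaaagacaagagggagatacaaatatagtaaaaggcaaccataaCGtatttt
MYRFL, chr12:69933109-69933308, plus strand: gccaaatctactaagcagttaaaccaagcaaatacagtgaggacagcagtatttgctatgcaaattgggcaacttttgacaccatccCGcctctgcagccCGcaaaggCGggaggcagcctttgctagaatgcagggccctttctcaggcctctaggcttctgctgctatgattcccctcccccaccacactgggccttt
RAB40B, chr17:82698730-82698929, minus strand: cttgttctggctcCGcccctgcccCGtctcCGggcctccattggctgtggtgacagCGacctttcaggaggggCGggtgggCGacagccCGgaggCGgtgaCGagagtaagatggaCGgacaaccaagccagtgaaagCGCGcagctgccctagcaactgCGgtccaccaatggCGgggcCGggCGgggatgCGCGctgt

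The window at NAT16, which encodes a predicted N-acetyltransferase, held 4 CpGs, and that at BMF, which encodes a pro-apoptotic BH3-only protein, held 3. The windows at GOLPH3L, a Golgi phosphoprotein gene, and at PFKFB4, a regulator of glycolytic flux, held 5 each, and that at MYRFL held 3. The RAB40B window held 18. These 5 windows were selected for strength, and island-free regions as a set were weak, as described below. NAT16 had a fold enrichment over local background of 26.1 in abemaciclib replicate 1 and 22.1 in replicate 2, and BMF had 26.2 and 18.0. GOLPH3L stood at 13.6 and 13.5, PFKFB4 at 13.9 and 17.1, and MYRFL at 15.04 and 10.5, compared with 45.1 and 37.7 at RAB40B. Neither DMSO library had a peak at any of them, as the rule requires. Relative to the nearest coding TSS, with negative positions upstream, the summit lay at -179 bp at BMF and at -116 bp at GOLPH3L, but at -1177 bp at PFKFB4, at 673 bp at MYRFL and at -2323 bp at NAT16, where the merged region but not the summit reached the promoter.

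Most of the 926 windows were short of CpG and not of GC. The CpG ratio alone was low in 766 windows, GC content alone in 96, and both in 64. The median GC content was 60% and the median CpG ratio 0.512, against 71% and 0.886 in the CpG-rich regions. A median of 8 CpGs fell in a CpG-poor window, against 21 in a CpG-rich window. The thresholds cut through a continuous distribution. A ratio within 0.05 below 0.6 was found in 231 CpG-poor windows, a ratio within 0.05 above it in 339 CpG-rich windows, and only 102 CpG-poor windows had a ratio under 0.3. TTC39A and GNL2, both at 0.5991, lay just inside the CpG threshold, and EIF5A2 and TRAF3IP2, both at 0.6002, just outside. ASPM and COPS8, both at 49.5% GC, lay just inside the GC threshold, and H2BC13 and WASHC4, both at 50%, just outside.

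**Figure D1:**
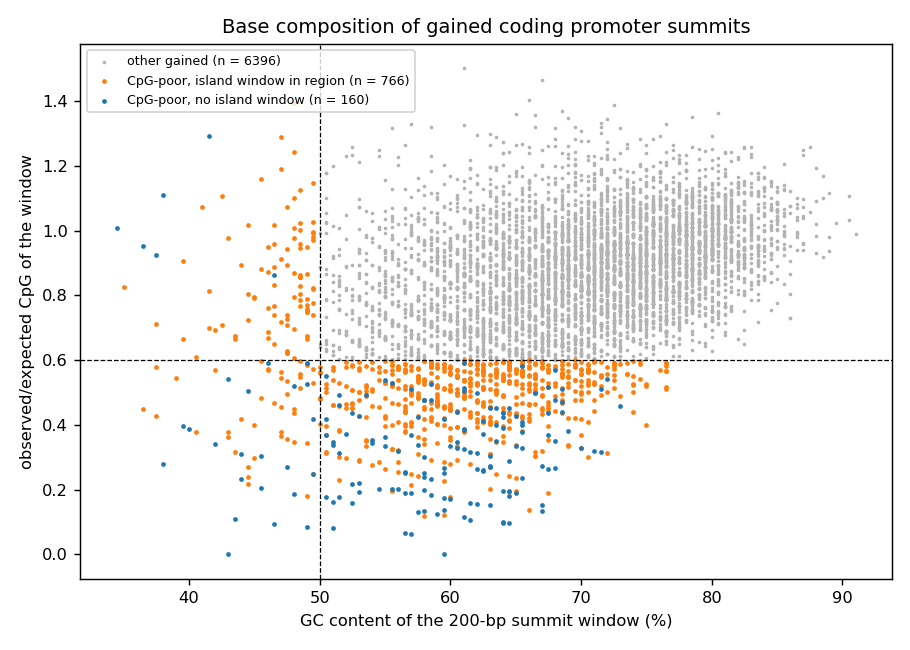
GC content (x axis, %) against observed/expected CpG (y axis) of the 200-bp summit window of each of the 7322 gained coding promoter regions, with dashed lines at the thresholds of 50% and 0.6. Grey points are the 6396 CpG-rich regions, orange points the 766 CpG-poor regions with an island-like window elsewhere in the region, and blue points the 160 without one; most coloured points lie below the horizontal line and to the right of the vertical line.

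The CpG-poor regions fell into a large and a small group when the whole region was read in place of the summit. A 200-bp window that reached both thresholds, termed island-like here, was present somewhere in 766 regions, or all but 160. These 160 regions (17.3%, Wilson 95% interval 14.98 to 19.8%) are termed island-free. Only 1 CpG-rich region had no such window, which the rule nearly ensures. Over all 926 regions a median of 54.1% of window positions were island-like, against 92.5% in the CpG-rich regions, and the sequence of the whole region reached both thresholds in 562. The CpG-poor regions with an island-like window had a mean of 4.36 CpGs per 100 bp at the summit, flanked by 6.59 at 200 bp upstream and 7.28 at 200 bp downstream. The CpG-rich regions peaked at the summit with 10.9 per 100 bp. The island-free regions were flat, with 2.64 per 100 bp at the summit and 2.13 at 500 bp upstream. For most CpG-poor regions, the summit of abemaciclib replicate 1 thus stood in a gap within or beside CpG-rich sequence. The depth of that gap at the summit is set by the choice of windows and is given as a description.

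**Figure D2:**
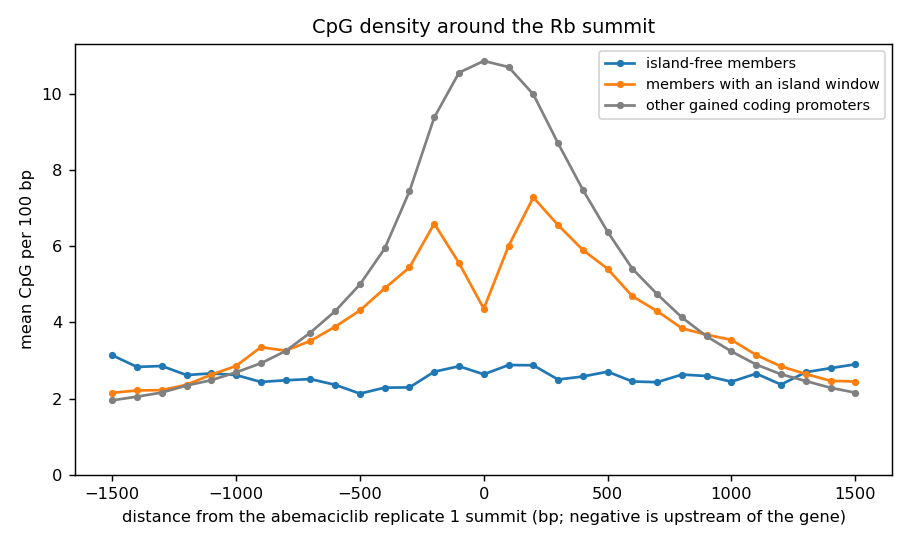
Mean number of CpGs per 100 bp (y axis) in 200-bp windows placed every 100 bp around the summit of abemaciclib replicate 1 (x axis, bp, negative upstream in the direction of the nearest coding gene). The grey line (6396 CpG-rich regions) peaks at the summit at 10.9, the orange line (766 CpG-poor regions with an island-like window) dips there to 4.36 between shoulders of 6.59 and 7.28, and the blue line (160 island-free regions) stays near 2.64.

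The second abemaciclib library, whose summits the rule did not use, placed 572 of the 926 regions (61.8%) in CpG-poor sequence again, and 354 in CpG-rich sequence. Among the CpG-rich regions, 432 of 6396 (6.75%) were CpG-poor at the replicate 2 summit. Of the island-free regions 158 of 160 were CpG-poor at that summit too, as the absence of an island-like window nearly requires. The 2 summits of a region lay a median of 75.5 bp apart in the CpG-poor and 72 bp apart in the CpG-rich set, so the summits shifted by similar amounts in both sets. LYRM1, for example, had a ratio of 0.510 under the summit of replicate 1 and 0.614 under that of replicate 2.

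The median Rb enrichment was lower at CpG-poor than at CpG-rich gained promoters in each abemaciclib library. The median fold enrichment was 9.79 against 12.03 in replicate 1 and 8.43 against 9.86 in replicate 2. The middle 50% of CpG-poor regions spanned 6.64 to 14.5 in replicate 1 and 5.92 to 12.9 in replicate 2, and the middle 50% of CpG-rich regions spanned 8.02 to 17.8 and 6.74 to 14.9, so that the distributions overlapped widely. The island-free regions were the weakest, with medians of 6.58 and 5.65, and the CpG-poor regions with an island-like window had medians of 10.9 and 9.20. Peak width followed the same order. The median peak width in replicate 2 was 327 bp in the island-free regions, 686.5 bp in the CpG-poor regions with an island-like window and 736 bp in the CpG-rich regions. A q-value of at most 1e-05 in replicate 2 was reached by 747 of 926 CpG-poor regions (80.7%) and by 5614 of 6396 CpG-rich regions (87.8%; two-sided Fisher's exact test, adjusted p = 2.32e-08 over 4 tests). Every region compared had already passed q of 0.05 in that library through the rule. In both libraries together the stricter q was met by 705 CpG-poor regions (76.1%), and by 73 of the 160 island-free regions (45.6%). The IgG2a library had no peak at any of the 926, and at 1 of the CpG-rich regions. IgG was the control in peak calling and its list held only 6 coding promoter peaks, so this is no test of specificity.

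**Figure D3:**
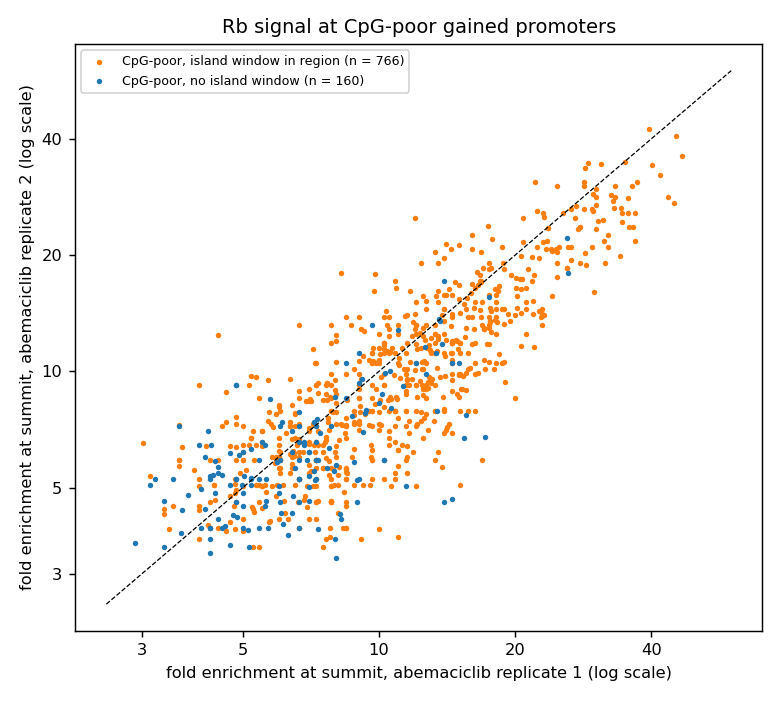
Fold enrichment at the summit in abemaciclib replicate 1 (x axis, log scale) and replicate 2 (y axis, log scale) for the 926 CpG-poor gained promoters, with a dashed line of equal values. Orange points (766 regions with an island-like window) extend to 46.7 and 42.4, and blue points (160 island-free regions) gather at the lower end around medians of 6.58 and 5.65; all regions were selected for a peak in both libraries.

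The summits of CpG-poor regions lay farther from the TSS, and more often upstream of it. In replicate 2, 624 of 926 summits (67.4%) fell within 250 bp of the nearest coding TSS, against 5331 of 6396 (83.3%) in the CpG-rich set (two-sided Fisher's exact test, adjusted p = 2.70e-27). The share upstream was 53.9% against 45.6% (two-sided Fisher's exact test, adjusted p = 3.58e-06). Because the 2 replicates' summits are close together, the position in replicate 2 is not independent of the position in replicate 1 that fixed the window. Most coding TSS windows, taken once per gene, were CpG-rich (13575 of 19970), so choosing CpG-poor windows itself favours summits away from the TSS. These 2 tests cannot separate position from that choice, and the differences are given as a description. The windows low in GC were the more upstream ones. The replicate 2 summit was upstream in 63.5% of the 96 regions low in GC alone and in 68.8% of the 64 low in both measures, against 51.4% of the 766 low in CpG alone. The island-free regions were the farthest from a start site, with a median distance of 215 bp in replicate 2, against 146 bp for the CpG-poor regions with an island-like window and 103 bp for CpG-rich regions. Promoters of 2 or more coding genes made up 18.3% of CpG-poor and 16.96% of CpG-rich regions, a difference that did not pass the test (two-sided Fisher's exact test, adjusted p = 0.327). By annotation, the replicate 1 summit was in an intron of a coding gene in 364 CpG-poor regions (39.3%), in a UTR in 239 (25.8%), outside genes in 176 (19.0%) and in a coding exon in 30 (3.24%). In the CpG-rich set a UTR was the most frequent position, at 38.5%, followed by an intron at 23.9%.

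CpG-poor summits also occurred at coding promoters with other peak patterns. Of 996 coding promoter regions with a peak in all 4 Rb libraries, 103 were CpG-poor (10.3%, Wilson 95% interval 8.60 to 12.4%), compared with 12.6% (11.9 to 13.4%) of the gained regions, and the intervals overlap. Of 1237 regions detected in both abemaciclib libraries plus 1 DMSO library, 99 were CpG-poor (8.003%, 6.62 to 9.65%), an interval below that of the gained regions. The share was highest, at 31.7%, in the 1548 regions with a peak in abemaciclib replicate 1 only. Read library by library, each with its own summits, 9.20% and 9.47% of coding promoter peaks were CpG-poor in the DMSO libraries and 14.7% and 14.3% in the abemaciclib libraries. The means differed by 5.19 percentage points (14.5 ± 0.254% against 9.33 ± 0.191%, SD, n = 2 each) and the treatments did not overlap, but an exact permutation test of 2 against 2 libraries cannot give a two-sided p below 0.33, which is the value obtained.

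Peak strength and list length moved with this difference. In the strongest decile of the peaks of abemaciclib replicate 1, 10.0% of coding promoter peaks were CpG-poor, and in the weakest decile 35.2%. The corresponding shares in replicate 2 were 10.4% and 29.2%. The abemaciclib lists held 13960 and 12234 peaks and the DMSO lists 1438 and 2582. The implied sequencing depth, which rests on an assumed genome size, was 9.73 and 7.69 M fragments (M, mega) with abemaciclib and 12.3 and 13.6 M with DMSO. The part of strength, list length and depth in the difference between treatments was not tested. When each list was limited to its 1438 strongest peaks, the CpG-poor shares were 9.97% and 10.5% with abemaciclib and 9.20% and 6.92% with DMSO. The difference in means was then 2.16 points, less than the difference between the DMSO libraries.

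**Figure D4:**
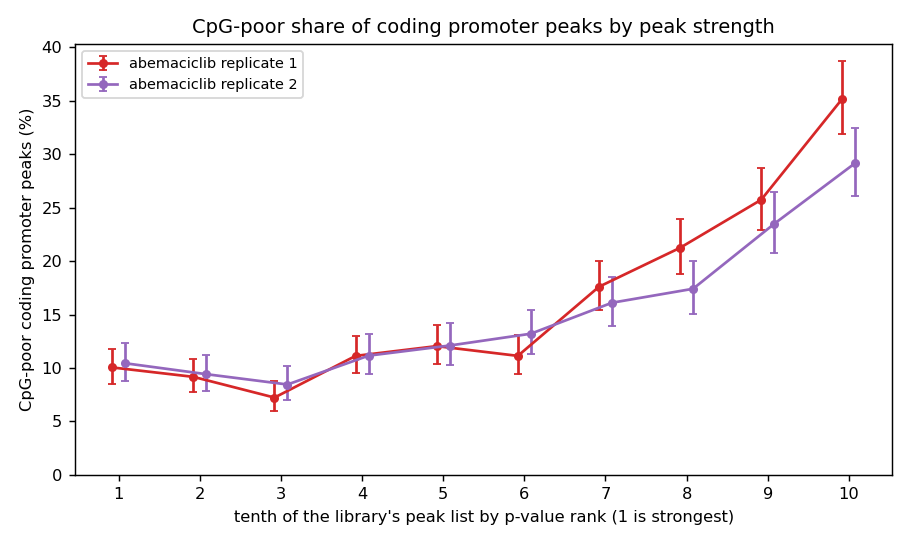
Share of coding promoter peaks that were CpG-poor at their own summit (y axis, %) in each decile of the peak list of abemaciclib replicate 1 (red) and replicate 2 (purple), ordered from strongest to weakest by p-value (x axis); bars show Wilson 95% intervals, which reflect counting error alone. The share lies between 7.23% and 13.2% in the 6 strongest deciles and reaches 35.2% and 29.2% in the weakest.

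A CpG-poor gained region lay at a promoter of 1083 of 19970 protein-coding genes (5.42%), and any gained region at 8008 (40.1%). For 834 of the 1083 genes it was the only kind of gained or all-library region at their promoters, while 228 also had a CpG-rich gained region and 34 also had a region of all 4 libraries. Most of these genes started in CpG-rich DNA, as did most coding genes. Of the 1083 genes, 850 had a CpG-rich 200-bp window at their TSS and 233 a CpG-poor one. Here each gene had 1 TSS, that of its canonical or first-listed transcript. At the coding TSS of any transcript nearest to the replicate 1 summit, the window was CpG-poor for 367 CpG-poor regions (39.6%). The share was 4.49% for CpG-rich regions, and 129 of the island-free regions had such a window. Where the summit is near, that window overlaps the one the rule used. A CpG-rich window was present at 13575 of all 19970 coding genes, and at 7229 of the 8008 with any gained region. Of the 6395 coding genes with a CpG-poor TSS, 12.2% (Wilson 95% interval 11.4 to 13.0%) had a gained region of any kind, compared with 53.3% (52.4 to 54.1%) of the 13575 genes with a CpG-rich TSS. The share with a gained region went from 5.73% of genes with a TSS ratio under 0.1 to 59.2% of those at 1 or above. The same direction was seen for regions present in all 4 libraries, at 1.63% against 8.79%.

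**Figure D5:**
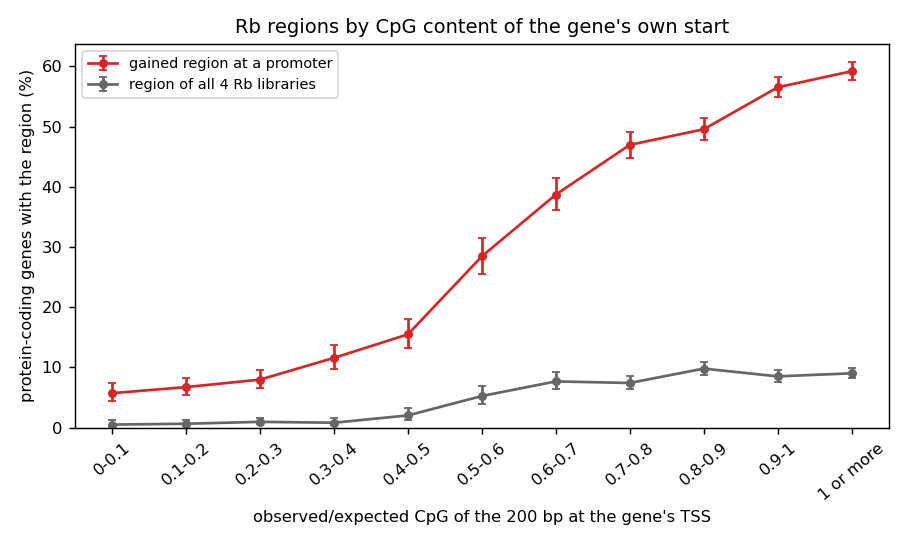
Share of protein-coding genes (y axis, %) with a gained Rb region (red) or a region of all 4 Rb libraries (grey) at a promoter, by the observed/expected CpG ratio of the 200 bp at the gene's own TSS (x axis); bars show Wilson 95% intervals. The red line goes from 5.73% in the lowest bin to 59.2% in the highest.

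The strongest CpG-poor regions by mean rank were all of the kind with an island-like window. LYRM1, which encodes a mitochondrial LYR-motif protein, had fold enrichments of 46.7 and 36.1 in abemaciclib replicates 1 and 2. CDIPT, the phosphatidylinositol synthase, had 39.6 and 42.4, and both of its summits lay in nearly the same place, at -61 and -62 bp from the TSS. PNPLA8, a phospholipase, had 45.3 and 40.8. RFXANK, a subunit of the factor that activates MHC class II genes, had 40.04 and 34.1. The LYRM1 region overlapped promoters of 3 coding genes and the RFXANK region those of 4. THOC1, a subunit of the THO complex of mRNA export, had 22.1 and 30.9. PRR14, RAP2A, PSMB8, PIAS3 and PDIK1L completed the first 10, with replicate 1 values from 28.9 to 44.9.

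At the other end, 2 windows held no CpG at all, at WDR46 and at MTA2, a subunit of the NuRD complex. WDR46 had fold enrichments of 3.62 and 7.23 and MTA2 of 3.21 and 5.26, and the replicate 1 values were near the lower end of the range of 2.90 to 46.7. PPP6R1, a regulatory subunit of protein phosphatase 6, had 1 CpG in its window and enrichments of 10.3 and 5.92. SELENBP1 and GSS, the latter encoding glutathione synthetase, also had 1 CpG each, with replicate 1 values of 4.41 and 6.42. The lowest GC contents were 34.5% at ARMT1 and 35% at RPL32, where the CpG ratio was high, at 1.01 and 0.827. ARMT1 was near the detection limit at 4.06 and 3.93, RPL32 stood at 8.01 and 9.51, and GATAD1, at 36.5% GC, reached 28.4 and 30.2.

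Among cell cycle genes, 3 of 60 had a CpG-poor gained region (5%, against 5.42% of all coding genes), while 23 had only CpG-rich gained regions and 25 had a region in all 4 libraries. The 3 were RRM1, the large subunit of ribonucleotide reductase, at fold enrichments of 36.8 and 21.7, TTK, a kinase of the spindle checkpoint, at 8.46 and 13.8, and AURKB, a mitotic kinase, at 6.64 and 6.57. The AURKB summit moved from a window with 4 CpGs in replicate 1 to one with 13 in replicate 2. RRM1 became CpG-rich in the same way, with 11 and 20 CpGs, whereas TTK was CpG-poor at both summits, with ratios of 0.518 and 0.558.

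A few genes of luminal and epithelial identity had island-free regions, and most genes of these lists had no CpG-poor gained region. Of 59 oestrogen response and luminal genes, 5 had a CpG-poor gained region (8.47%, against 5.42% of all coding genes). For 2 of them it was island-free (3.39%, against 0.911%). In this list 24 genes had only CpG-rich gained regions and 20 had no Rb region. MUC1, the luminal mucin, had enrichments of 15.1 and 14.1 with 7 and 6 CpGs under the summits, and ELF3, an epithelial ETS factor, had 10.6 and 10.0 with 3 and 4 CpGs. ELF3 was island-free over a region of 1162 bp, whereas the MUC1 region held island-like windows. ABAT, the GABA transaminase, whose region also held island-like windows, had 8.02 and 8.76, and RARA and SYBU were the remaining 2. Of 50 genes of keratins and junctions, 5 had a CpG-poor gained region (10%, against 5.42%) and 4 an island-free one (8%, against 0.911%). Here 11 genes had only CpG-rich gained regions and 28 had no Rb region. EVPL, encoding the desmosomal protein envoplakin, had 9.37 and 7.95, KRT80, an epithelial keratin, had 6.44 and 7.03, and ESRP2, an epithelial splicing regulator, had 4.41 and 5.67. JUP and PKP3 made up the 5. These lists hold few members, and no test was applied to them.

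Of 50 interferon response and antigen presentation genes, 4 had a CpG-poor gained region (8%, against 5.42% of all coding genes), in 3 regions, all on chromosome 6 in or near the MHC. A region at PSMB8, an immunoproteasome subunit gene, also overlapped a promoter of PSMB9, a further subunit, and gave 37.2 and 30.9. The region at TAP1, a subunit of the peptide transporter, likewise overlapped a promoter of PSMB9 and gave 14.0 and 21.4 with both summits at the same base. TAPBP, encoding tapasin, had 8.46 and 4.50. Of 50 cytokine, chemokine and receptor genes, 2 had such a region (4%). TNFRSF1A, the receptor for TNF, was among the 5 strongest island-free regions, at 17.5 and 15.6 with 6 CpGs under each summit, and IL15 had 6.03 and 6.72. Of 30 AP-1 and immediate early genes, DUSP6, an ERK phosphatase, was the 1 with such a region, at 10.4 and 14.3. Its window was low in GC only, with 12 CpGs.

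In larger families, the shares with a CpG-poor region are given beside the 5.42% of all coding genes, with no test. Among zinc finger genes (ZNF symbols), 53 of 515 had one (10.3%), and they made up 22.1% of the 240 zinc finger genes with any gained region, compared with 13.5% over all coding genes. The 53 genes shared 50 regions, of which 19 were on chromosome 19. The strongest were ZNF260, at 26.1 and 21.0, ZNF331, at 30.1 and 23.3, and ZNF761, at 26.6 and 26.3. Chromosome 19 also had the highest share of CpG-poor regions among its gained coding promoters, 104 of 544 (19.1%), and chromosome 21 the lowest, 3 of 69 (4.35%). Paralogous zinc finger genes have similar sequences, and how reads that map to several places were handled is not given in the sources used here.

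Ribosomal protein genes (RPL and RPS symbols) had a CpG-poor region at 11 of 83 (13.3%). Any gained region was more common among them too, at 62.7% against 40.1% of all coding genes. The 11 made up 21.2% of the 52 with any gained region, compared with 13.5% over all coding genes. Low GC content alone put 5 of these 11 regions in the set (45.5%, against 10.4% of all 926). RPL23A, at 48% GC with 11 CpGs, had enrichments of 13.3 and 20.4, and RPS23, at 46% with 10 CpGs, had 14.5 and 11.8. RPS27L had 15.2 and 8.99 and was in the set for its CpG ratio of 0.590. None of the 11 was island-free. Respiratory chain genes had a CpG-poor region at 11 of 94 (11.7%), among them NDUFA11 at 27.3 and 26.9 and UQCR11 at 12.03 and 12.9. In this family 60.6% had any gained region, and the CpG-poor share of those 57 genes was 19.3%. Solute carriers stood at the share of all coding genes, with 20 of 373 (5.36%). SLC39A11, a zinc transporter gene, had 30.5 and 24.5 with 4 and 3 CpGs under the summits, SLC27A1, a fatty acid transporter gene, had 32.6 and 28.6, and SLC4A2, an anion exchanger gene, had 16.6 and 16.8. RAB GTPases had 4 of 63 (6.35%), RAB13 among them at 9.14 and 12.9 with 2 CpGs under the first summit. Histone genes had 2 of 74 (2.7%) and ion channel genes 3 of 136 (2.21%). None of 416 olfactory receptor genes, 412 of which start in CpG-poor DNA, had a gained region.

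Short sequence patterns were counted in the summit windows on either strand, and they depend on base composition, which chose the windows. The coding TSS windows set beside them are 1 per gene, at the canonical or first-listed transcript. Any of 4 E2F patterns, each of which contains a CpG (the classic TTCCCGC, the related TTGGCGC, the alternative form TTCGCGC, and lastly the form TTGCCGC), occurred in 126 CpG-poor windows (13.6%), 17.9% of CpG-rich windows and 24.5% of windows in regions of all 4 libraries, against 12.3% of windows at all coding TSSs. Island-free windows held them in 25 of 160 (15.6%, Wilson 95% interval 10.8 to 22.05%) at the replicate 1 summit and in 20 of 160 (12.5%, 8.24 to 18.5%) at the replicate 2 summit, compared with 3.97% (3.52 to 4.48%) of the 6395 CpG-poor windows at coding TSSs. Whether this excess was particular to E2F patterns was not tested. GGGCGG, which also holds a CpG, was in 28.75% of island-free windows at the replicate 1 summit and 25.6% at the replicate 2 summit. It was in 17.2% of the CpG-poor TSS windows. The island-free and TSS windows were not matched for GC content or CpG number. Of the sequences printed above, those of GOLPH3L and PFKFB4 held an E2F pattern. H4C9, a histone H4 gene with enrichments of 9.06 and 9.86, also held one. The CHR pattern TTTGAA, whose full element recruits the DREAM complex at cell cycle promoters, was in 7.02% of CpG-poor and 3.21% of CpG-rich windows. It was in 6.13% of all TSS windows and in 11.1% of the CpG-poor TSS windows. The BMF and PFKFB4 windows held it, as did that of ASPM, a mitotic spindle gene with enrichments of 18.8 and 19.0.

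The CCAAT box bound by NF-Y (CCAAT) was in 23% of CpG-poor, 17.3% of CpG-rich and 25.1% of all TSS windows, and GOLPH3L, NAT16 and MYRFL carried it. Patterns with a CpG were less frequent at CpG-poor summits. GGGCGG, recognised by SP and KLF factors, was in 38.3% of CpG-poor against 65.1% of CpG-rich windows, and the ETS pattern CCGGAAG in 4.32% against 8.83%. Patterns without one were more frequent than in CpG-rich windows. TATAAA or TATATA was in 4.1% against 1.27%, AGATAA or TGATAA, bound by GATA factors, in 8.10% against 2.10%, TGACTCA or TGAGTCA, bound by AP-1, in 2.48% against 0.954%, and the forkhead pattern TGTTTAC in 1.73% against 0.829%. All TSS windows lay between or above these, at 8.13% for TATA, 5.81% for GATA, 2.11% for AP-1 and 1.20% for forkhead. The CpG-poor TSS windows exceeded the CpG-poor summits in each, at 18.0% for TATA, 13.7% for GATA, 4.33% for AP-1 and 2.06% for forkhead. For CCAAT those TSS windows stood at 27.2%, also above the CpG-poor summits. They held GGGCGG (17.2%) and CCGGAAG (3.03%) less often than the CpG-poor summits did. A pattern match is not evidence of binding.

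Few of the CpG-poor regions neighboured Rb peaks already present in DMSO, but a larger share did so than of the CpG-rich regions. A DMSO peak lay within 2000 bp of 26 of the 926 (2.81%) and of 56 of 6396 CpG-rich regions (0.876%). The island-free regions stood out, with such a peak near 15 of the 160. Another Rb region of any pattern lay within 2000 bp of 208 CpG-poor regions (22.5%), and of 64 of the 160 island-free regions among them. That count was not made for the CpG-rich regions, so these numbers do not show closer neighbours than elsewhere.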

How the data were processed

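The authors aligned reads to GRCh38 with Bowtie2 2.3.4.1 (the submitters' processing notes) and ran MACS2 2.2.7.1 on single libraries, with IgG as control and q-values up to 0.05 accepted. The deposited lists hold, for every peak, its coordinates, summit offset, −log10 p- and q-values and fold enrichment, the ratio of pileup plus 1 to background plus 1. No read counts were used, so a region just under the threshold counts as having no peak, and no fold was tested between libraries. Peaks of the 4 Rb lists were merged where they shared 1 bp, and coding promoter regions were taken on chromosomes 1 to 22 and X. The count of all merged regions was not limited to those chromosomes. Depth was implied by whole-number pileups that solve fold and p-value together, and assumes an effective genome of 2.7 Gb. The members, gene lists and patterns were chosen with earlier results of these data known. A region is named after the coding gene with the TSS nearest to its summit, even where it overlaps promoters of several coding genes. Named are the 10 strongest members by mean rank, the 5 lowest in CpG and in GC, up to 3 per gene list, those next to the thresholds and the 5 strongest island-free ones; PFKFB4, MYRFL and RAB40B, and the remaining genes of short lists, were added, and 1 gene that the rule names is not reported here. Fisher's exact tests were two-sided with Benjamini-Hochberg adjustment over 4. They count regions as separate units and do not measure variation between cultures. Wilson 95% intervals reflect counting error alone. Python 3.11.15, scipy 1.17.1 and pandas 2.3.3 were used, and the scripts were tested on simulated data.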

Additional observations from a re-analysis of the deposited data

How the results depend on the processing

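The labels give the replicates numbers but not what a number shares; with the replicate number as a block (paired), the difference in CpG-poor share between treatments was 5.19 points, with an exact permutation p of 0.5, the smallest that 2 pairs allow. Of 113 alternative values over 8 results, 89 changed little by the following criteria. Differences tested by Fisher's exact test kept their direction and side of the threshold, and shares stayed within their interval. Counts were within 1.5 times the reported number (from 779 to 1242 regions). For the treatment difference, whose permutation test could not give a low p, only the direction had to be kept. The number of CpG-poor regions, 926, was 615 with a 400-bp window, 453 and 1425 with the stricter and looser composition thresholds, 572 when CpG-poor at both summits was required, and 11 with equal numbers of the strongest peaks; without 1 library it ranged from 951 to 1442, the highest being without abemaciclib replicate 2. Their share of gained coding promoters, 12.6%, was 11.1% at q of at most 1e-05, 8.40% with a 400-bp window, 6.19% and 19.5% with the stricter and looser thresholds, 13.7% at the summit of replicate 2 and 6.47% with equal peak numbers, and ranged from 12.01 to 16.1% without 1 library. The difference in promoters of 2 or more coding genes, 1.29 points, became -0.768 with a 400-bp window, -2.49 with stricter thresholds, 3.83 with looser ones (adjusted p = 0.000745, Fisher's exact test), -5.09 in island-free regions and -0.880 in regions CpG-poor at both summits, and ranged from -0.837 to 1.60 without 1 library, negative without abemaciclib replicate 2. The gain at CpG-poor minus CpG-rich start sites, -41.1 points, was -38.7 with looser thresholds and -36.4 with reciprocal overlap of the abemaciclib peaks, and ranged from -47 to -42.25 without 1 library. The cause of these changes was not tested. The paired setting and the 3 with equal peak numbers, island-free regions or both summits were chosen after seeing the data. With 2 libraries per treatment, the exact permutation test used here could not give p below 0.33.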

Other observations

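The IgG2a library had 589 peaks, of which 6 lay at coding promoters and 4 of those 6 were CpG-poor at their summit; none overlapped a CpG-poor gained promoter.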
